A study of Homo sapiens with 4 samples.

Results

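MANF, CDNF, CRELD1, CRELD2, SDF2 and SDF2L1 make up 3 small gene families of the endoplasmic reticulum (ER) and the secretory pathway, each holding a member known to be induced by ER stress beside a paralog. They were named as families, with earlier results of these libraries known, and looked up by gene symbol. All 6 were found among the 25192 genes of the deposited tables. The libraries were made from A549, a human lung adenocarcinoma cell line, 48 h after infection, in 2 groups of 2. EV cells received the control virus, which expresses only GFP and which the labels call empty vector. FCN3 cells received a virus with the V5-tagged coding sequence of FCN3, a secreted lectin of the complement pathway, ahead of GFP in the same retroviral vector. Each library is RNA of a whole transduced culture, so that fewer cells of a type and less RNA per cell cannot be told apart. The labels do not say whether replicates were separate cultures, and the p-values measure only the spread between these libraries, which may be technical.

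When unfolded proteins build up in the ER, the sensors ATF6, IRE1 and PERK start the unfolded protein response (UPR), and ATF6 and spliced XBP1 switch on chaperone genes through the ER stress element in their promoters. MANF is a small ER protein that binds the chaperone HSPA5 (BiP) and is released from stressed cells, and CDNF is its paralog. Both were first described as factors that protect dopamine neurons. CRELD2 is a soluble protein with EGF-like repeats and disulfide isomerase activity that is also secreted under stress, while CRELD1 is anchored in the membrane and is known for its part in heart development. SDF2L1 and SDF2 are built from MIR domains, which they share with protein O-mannosyltransferases, and keep clients soluble together with the HSPA5 co-chaperone DNAJB11. Several of these proteins end in a KDEL-like tail, which KDEL receptors recognise to return proteins from the Golgi to the ER.

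MANF spans 51422722 to 51426828 on the plus strand of chromosome 3 of GRCh37 (hg19), and CRELD1 lies on the same strand and chromosome from 9975477 to 9987097. CRELD2 (50311815 to 50321188) and SDF2L1 (21996591 to 21998588) are both on the plus strand of chromosome 22. CDNF (chromosome 10, 14861244 to 14880574) and SDF2 (chromosome 17, 26975364 to 26989207) are read from the minus strand. GENCODE annotates all 6 as protein-coding.

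The promoters were searched for the ER stress element, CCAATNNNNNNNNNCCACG, and for ER stress element II, which is ATTGG and CCACG with 1 base between, on both strands. The sequences come from RefSeq on GRCh38.p14 and cover 250 bases before to 50 after each start, with all 6 genes matched by symbol. The 190 bases before the start are shown for the genes that were called up-regulated and for CRELD1, the nearest below the threshold, with the fixed letters of an exact element in capitals.
CRELD2, chr22:49918444-49918633, plus strand: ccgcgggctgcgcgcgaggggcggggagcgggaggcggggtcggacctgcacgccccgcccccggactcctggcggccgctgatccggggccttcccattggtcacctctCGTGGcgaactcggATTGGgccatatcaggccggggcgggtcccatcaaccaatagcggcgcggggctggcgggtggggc
SDF2L1, chr22:21642112-21642301, plus strand: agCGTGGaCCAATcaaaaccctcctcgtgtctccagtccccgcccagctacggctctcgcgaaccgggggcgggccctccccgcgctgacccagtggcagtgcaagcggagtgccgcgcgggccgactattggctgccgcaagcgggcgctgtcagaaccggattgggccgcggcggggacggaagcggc
MANF, chr3:51385101-51385290, plus strand: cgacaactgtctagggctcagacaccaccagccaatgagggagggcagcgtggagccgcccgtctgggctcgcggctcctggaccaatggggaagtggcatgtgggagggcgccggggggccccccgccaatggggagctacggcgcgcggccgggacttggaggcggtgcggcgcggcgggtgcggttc
CRELD1, chr3:9933644-9933833, plus strand: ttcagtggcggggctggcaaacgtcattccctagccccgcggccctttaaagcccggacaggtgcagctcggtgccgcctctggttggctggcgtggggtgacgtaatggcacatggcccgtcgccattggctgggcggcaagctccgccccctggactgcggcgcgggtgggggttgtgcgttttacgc
CRELD2 holds an exact ER stress element on the opposite strand, at -80 to -62 from the start. SDF2L1 holds an exact ER stress element II on the opposite strand, at -188 to -178 from the start, which overlaps a copy of the longer element with 1 letter changed. Exact copies of these are rare, the first in 0.0769% and the second in 0.0541% of 35116 promoters of the same length. MANF has neither within this window. CRELD1 and SDF2 each have 2 promoters in these sequences. The CRELD1 promoter shown has only a copy of the ER stress element with 1 letter changed, a match found in 1.55% of promoters when exact copies are counted too. The other CRELD1 promoter, chr3:9933801-9934100, has none of these matches. The promoters of CDNF and SDF2 hold none of these. No promoter of the 6 genes holds TGACGTGG, an element bound by ATF6 and XBP1 that 0.729% of promoters carry, or the CRE, TGACGTCA, found in 1.85%. A match in letters is a description and not a bound site, and no match says only that the letters are not in this window.

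The expected counts of the libraries summed to between 16353554 and 35733735, replicate 1 being the deeper in both groups. FCN3 itself had 1 and 0 counts in EV cells against 722388 and 448352 with the FCN3 virus. The epithelial keratins KRT8, KRT18 and KRT7 lay between 1612 and 5237 TPM (a level per transcript length) in every library. EPCAM and CDH1 were low, and EPCAM was lower in FCN3 cells, at 1.09 and 1.61 TPM against 2.66 and 3.65 TPM, the part of which in the results was not tested. Of 6 markers of leukocytes, endothelium and fibroblasts, CD3E and PECAM1 were at 0, and only COL1A1 exceeded 0.02 TPM. COL1A1 was at 3.39 and 8.12 TPM in EV cells and at 2.70 and 7.87 TPM in FCN3 cells. These levels are within the span of EPCAM and CDH1 (1.09 to 9.53 TPM). Levels below are CPM (counts scaled to library depth, TMM-normalized) or, where genes are compared with each other, TPM, and all 6 genes passed the filter on low counts. A gene was called at an adjusted p below 0.01 in edgeR's quasi-likelihood test over the 14099 genes that passed.

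MANF, CRELD2 and SDF2L1 were up-regulated in FCN3 cells, by 5.43-, 12.8- and 6.47-fold. These are 3 of the 6 genes, whereas 0.738% of all tested genes were called up-regulated and 0.227% down-regulated, 0.965% in all. CRELD1 and CDNF were higher by 3.11- and 2.40-fold without passing the test, and SDF2 was at 0.827 of its EV level, also without passing. In a fit that took the replicate number as a block, 36.2% of tested genes were called, 19.1% higher and 17.1% lower. With so few libraries that fit has little of a gene's own spread to use, and its p-values rest mostly on spread pooled over genes. With the block, MANF, CRELD2, SDF2L1 and CRELD1 were called higher and SDF2 lower. CDNF was called higher too, but its EV libraries alone would not have taken it past the filter on low counts. DESeq2 with the same block called neither CDNF (adjusted p = 0.303) nor SDF2 (adjusted p = 0.0814). The groups did not overlap for any of the 6, with FCN3 cells above for 5 and below for SDF2, which was also so for 28% and 26.5% of all tested genes.

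**Figure D1:**
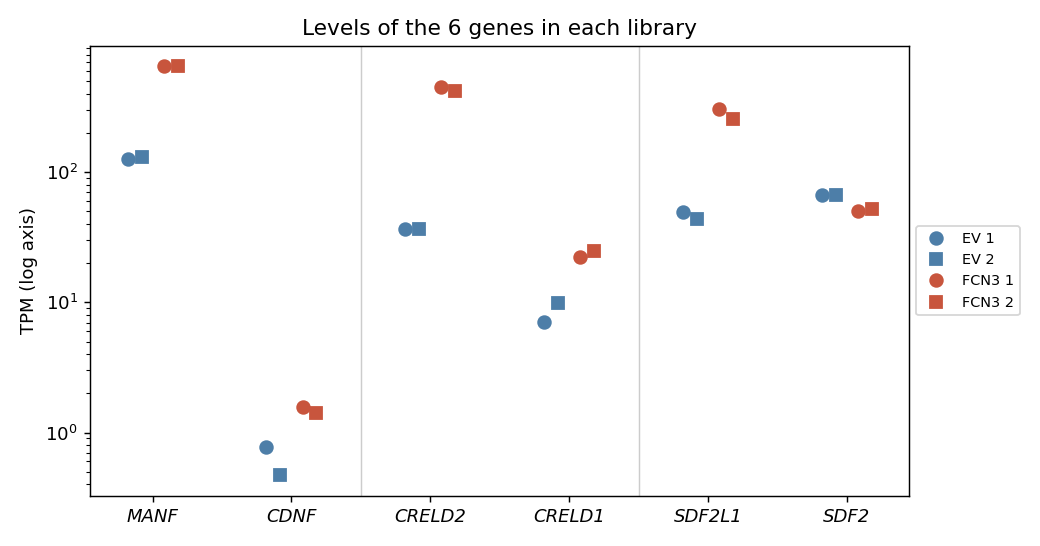
Level of each of the 6 genes in TPM, on a log axis, in the EV (blue) and FCN3 (red) libraries, with circles for replicate 1 and squares for replicate 2. MANF, CRELD2 and SDF2L1 rise from between 36.5 and 132 TPM to between 256 and 649 TPM, CRELD1 and CDNF sit higher from a lower level, and SDF2 sits slightly lower with the FCN3 virus.

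MANF, the HSPA5-binding factor, was measured at 52.8 and 55.7 CPM in EV replicates 1 and 2 and at 296 and 292 CPM in FCN3 replicates 1 and 2. The 2 groups were far apart and replicates of a group differed by little. This is a log2 fold change of 2.44 (standard error 0.08, 95% interval 2.23 to 2.65, adjusted p = 0.000588 by edgeR). Between same-numbered libraries the difference was 2.49 for replicate 1 and 2.39 for replicate 2. MANF was the most abundant of the 6 genes in both groups, at 129 ± 4.34 TPM (SD, n = 2) in EV cells and 649 ± 0.184 TPM (SD, n = 2) in FCN3 cells. By TPM it moved from rank 1220 and 1133 of all listed genes in the EV libraries to rank 209 in both FCN3 libraries.

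CRELD2, the soluble EGF-repeat protein, was at 25.1 and 25.3 CPM in the EV libraries and at 335 and 310 CPM in the FCN3 libraries. The EV replicates were nearly equal and every FCN3 value was over 10 times the EV values. This is a log2 fold change of 3.68 (standard error 0.09, 95% interval 3.45 to 3.91, adjusted p = 0.000403 by edgeR). The same-numbered libraries differed by 3.74 and 3.62. CRELD2 thus ranked 22nd of all tested genes by log2 fold change, against 55th for SDF2L1 and 74th for MANF. The interval of the CRELD2 change lies wholly above those of MANF and SDF2L1, which overlap each other.

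SDF2L1, the stress-induced MIR domain protein, was at 18.9 and 16.9 CPM in EV cells and at 127 and 105 CPM in FCN3 cells. Replicate 1 was the higher library in both groups, by less than the difference between groups. This is a log2 fold change of 2.69 (standard error 0.14, 95% interval 2.36 to 3.03, adjusted p = 0.00193 by edgeR), or 2.75 and 2.64 between same-numbered libraries.

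CRELD1, the membrane-bound paralog of CRELD2, was at 8.34 and 12.1 CPM in EV cells and at 29.0 and 33.2 CPM in FCN3 cells. The groups did not overlap, but replicate 2 was the higher library in both, most visibly in EV cells. This is a log2 fold change of 1.64 (standard error 0.20, 95% interval 1.13 to 2.15), and its adjusted p by edgeR was 0.0154, just above the threshold. Blocking on the replicate number left the change at 1.64, with a smaller standard error of 0.10 and an adjusted p of 8.5e-21 by edgeR. That p-value rests mostly on spread pooled over genes. DESeq2 without a block called it as well (log2 fold change 1.61, adjusted p = 8.8e-10). It was also called without EV replicate 2, at 1.89 (adjusted p = 0.00309 in edgeR). Same-numbered libraries differed by 1.80 and 1.46. The deposited tables list 3 transcripts for CRELD1, and its effective length, which follows the mix of transcripts, was longer in replicate 2 than in replicate 1 of both groups, at 2150 and 2233 bases in EV cells and 2200 and 2299 bases in FCN3 cells.

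CDNF, the paralog of MANF, was barely detected, with 18 and 5 expected counts in the EV libraries and 37 and 19 in the FCN3 libraries. The exact 95% Poisson intervals of these counts are 10.7 to 28.4, 1.62 to 11.7, 26.1 to 51.0 and 11.4 to 29.7, and cover counting error only. In CPM these are 0.494 and 0.299 against 1.09 and 0.955, so that the groups do not overlap although the intervals of the counts are wide. The 2 EV libraries alone would not have taken CDNF past the filter, so it passed only with the help of its FCN3 libraries. Its log2 fold change was 1.26 (standard error 0.41, 95% interval 0.23 to 2.29, adjusted p = 0.136 by edgeR), and 1.28 with an adjusted p of 0.00565 with the replicate block. Same-numbered libraries differed by 1.14 and 1.68.

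SDF2, the constitutive paralog of SDF2L1, was at 44.9 and 45.7 CPM in EV cells and at 37.2 and 37.7 CPM in FCN3 cells. It was the sole gene of the 6 with lower values in FCN3 cells, and replicates of each group were close to each other. This is a log2 fold change of -0.27 (standard error 0.09, 95% interval -0.50 to -0.05, adjusted p = 0.142 by edgeR). With the replicate block it was again -0.27, with a standard error of 0.07 and an adjusted p of 0.00086. Same-numbered libraries differed by -0.27 and -0.28.

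**Figure D2:**
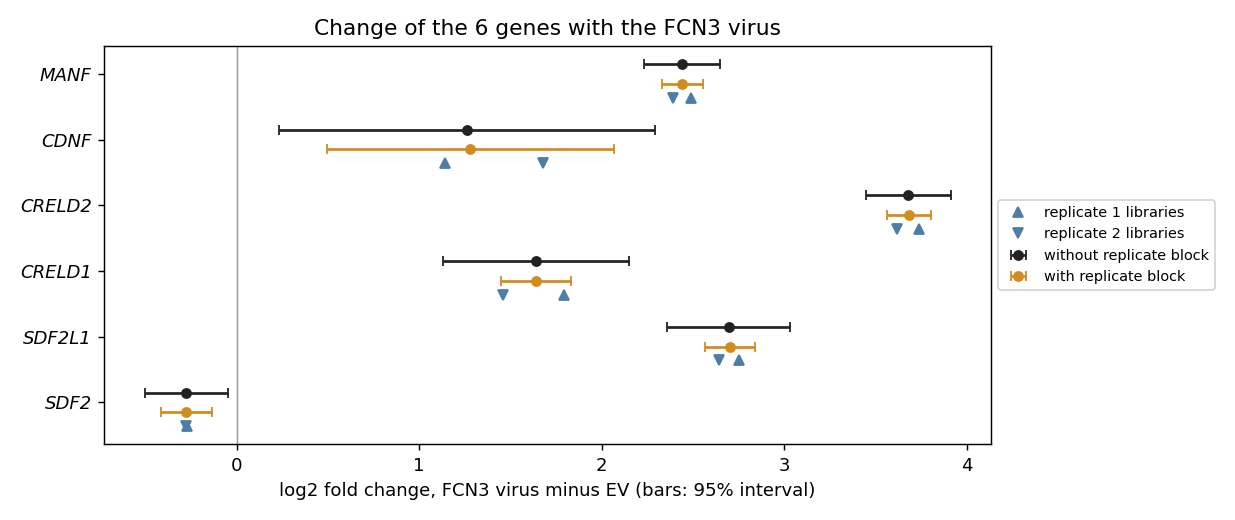
Log2 fold change of each gene, FCN3 virus minus EV, without (black) and with (orange) the replicate number as a block, with 95% intervals, and the differences between the replicate 1 and replicate 2 libraries as triangles. CRELD2 changed by 3.68, SDF2L1 by 2.69 and MANF by 2.44, the interval of CDNF is the widest, and SDF2 lies at -0.27.

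The tested genes as a whole had a median log2 fold change of 0.02, and the middle 95% of genes ran from -0.91 to 1.23. MANF, CRELD2, SDF2L1 and CRELD1 lie above this range, CDNF barely so, and SDF2 is within it. The plot of all genes shows that CRELD2, MANF and SDF2L1 combine a large change with a middle to high level, while CDNF sits where low counts scatter genes widely.

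In each family the stress-induced member held a larger share in FCN3 cells. MANF already made up 99.4% and 99.6% of the summed TPM of MANF and CDNF in the EV libraries, and it made up 99.8% in both FCN3 libraries. CRELD2 went from 83.7% and 78.8% of the CRELD pair to 95.3% and 94.5%. The SDF2 family turned over, since SDF2L1 was the minor member in EV cells, at 42.5% and 39.5%, and the major one in FCN3 cells, at 85.7% and 83.1%. In log2 TPM the difference between member and paralog shifted by 2.97 for SDF2L1 against SDF2, by 2.09 for CRELD2 against CRELD1 and by 1.03 for MANF against CDNF. An exact two-sided permutation test over the 4 libraries gave p = 0.333 for each, the smallest p that 2 libraries against 2 allow, so this test could not reach 0.05. The MANF shift rests on the few counts of CDNF and was 1.35 between replicate 1 and 0.72 between replicate 2 libraries.

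**Figure D3:**
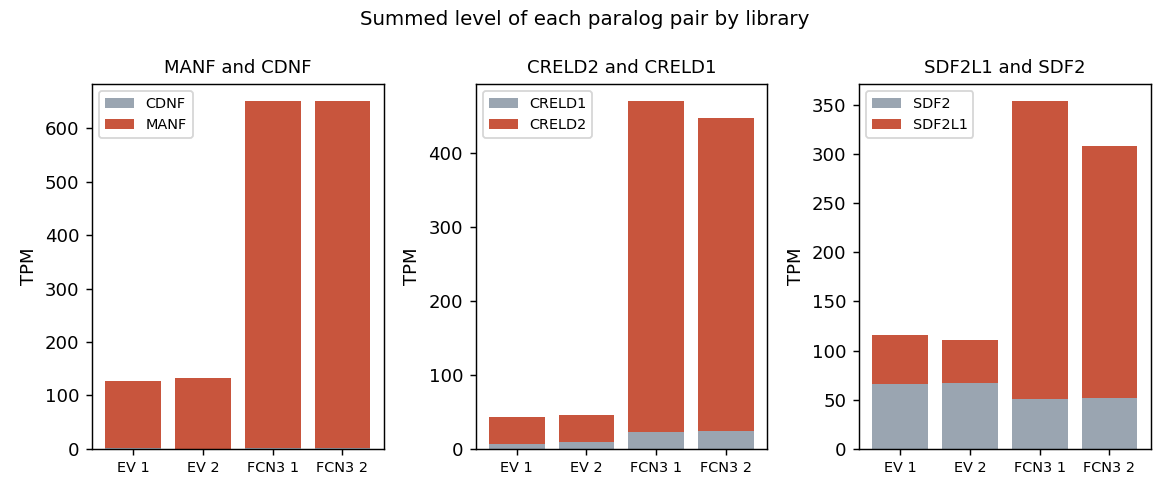
Summed TPM of each paralog pair in the 4 libraries, with the stress-induced member in red stacked on its paralog in grey. The MANF pair goes from 126 and 132 to 651 TPM, the CRELD pair from 43.7 and 46.3 to 470 and 447 TPM, and the SDF2 pair from 115 and 110 to 354 and 308 TPM, the grey part of SDF2 becoming slightly smaller.

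The order of the 6 levels in TPM also differed between the groups. In EV cells MANF was followed by SDF2 (66.6 ± 0.283 TPM), SDF2L1 (46.3 ± 3.88), CRELD2 (36.5 ± 0.0354), CRELD1 (8.46 ± 1.91) and CDNF (0.625 ± 0.219), each with its SD over 2 libraries. In FCN3 cells MANF was followed by CRELD2 (435 ± 18.4 TPM), SDF2L1 (279 ± 33.8), SDF2 (51.3 ± 1.09), CRELD1 (23.5 ± 1.81) and CDNF (1.58 and 1.41 in its libraries). No 2 neighbours in either order had overlapping values in the libraries of a group. SDF2 fell behind CRELD2 and SDF2L1, both of which it had exceeded in EV cells.

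ALG12, a mannosyltransferase of N-glycan assembly, is read from the strand opposite to CRELD2. In GENCODE its start lies inside CRELD2, 271 bases from the CRELD2 start, so the genes overlap there. By the RefSeq starts the genes point away from each other. The ER stress element of CRELD2, chr22:49918554-49918572 on GRCh38.p14, is the same stretch that lies at -134 to -116 from the RefSeq start of ALG12. ALG12 was at 16.9 and 19.4 CPM in EV cells and at 40.8 and 39.9 CPM in FCN3 cells, so both partners of this promoter were higher. Its log2 fold change of 1.16 (standard error 0.12) just missed the threshold without the block (adjusted p = 0.0108 by edgeR) and passed it with the block (adjusted p = 9.0e-18). The next genes on either side, ZBED4 and PIM3, had log2 fold changes of -0.10 and 0.00 and were not called with or without the block. The annotated ends of ALG12 and CRELD2 overlap, as do those of HSPA14 and CDNF and of PRRT3 and CRELD1, each pair on opposite strands. The kit marks strand but the strand setting of the counting is not given in the sources used here, so reads from the overlaps are uncertain.

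The other neighbours gave smaller values. SUPT6H, a transcription elongation factor that starts 9 bases from SDF2 on the opposite strand, had a log2 fold change of 0.09 against -0.27 for SDF2. HSPA14, a ribosome-associated HSP70 that shares its start region with CDNF, had -0.27, with overlapping values in the groups. DOCK3 and RBM15B, on either side of MANF, had 0.66 and -0.11, with adjusted p of 0.130 and 0.524 in edgeR, and DOCK3 was called with the block (adjusted p = 0.00197). IL17RC and PRRT3-AS1, beside CRELD1, had 0.12 and 0.09, and PRRT3 had -0.48. FAM107B and SUV39H2, the next genes beyond CDNF, had -0.21 and -0.33 and, like HSPA14, were called lower only with the block. SPAG5-AS1, 30968 bases from SDF2, did not pass the filter on low counts, and neither did CCDC116 and MIR301B on the sides of SDF2L1. Neighbours were matched by symbol, so a closer gene listed under another symbol would be missed.

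All genes with an exact ER stress element in the same promoter window, CRELD2 among them, were then read in these libraries. Of 25 such genes, 15 were tested, 14 of these had a log2 fold change above 0 and 9 were called up-regulated, or 14 with the block. Genes were matched by symbol, and some of those not tested, ERO1B among them, had no entry under the symbol used. Over all tested genes the share above 0 was 51.9%, and 0.738% were called up-regulated, or 19.1% with the block. Beside CRELD2, the called genes were HSPA5 (log2 fold change 3.19), FICD (2.45), which modifies HSPA5, HSP90B1 (2.44), XBP1 (1.55), PDIA6 (1.54), CALR (1.42), SERP1 (1.24) and TRIM5 (1.15). Their median over the 15 was 1.24. Of 13 tested genes with ER stress element II, 9 were above 0 and 3 were called up-regulated, namely HERPUD1 (3.78), HYOU1 (2.88) and SDF2L1 itself, with a median of 0.03. With the block 4 of the 13 were called higher and 3 lower, the lower ones being GYS1 (-0.24), PLS3 (-0.33) and RUVBL2 (-0.19). Over all tested genes, 17.1% were called lower with the block. These genes were grouped after the results of these libraries were known.

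The wider response was read from lists of genes known to act with these families. The lists share genes, HSPA5, DNAJB11 and DDIT3 among them, so their counts are not independent of each other. All 13 listed ATF6 targets were called up-regulated, with a median log2 fold change of 2.44, from 1.42 for CALR to 4.35 for DDIT3, the factor also known as CHOP. MANF and SDF2L1 lie inside this span, and CRELD2 is exceeded in it by DDIT3 and HERPUD1 only. Of 15 PERK-ATF4 targets, 9 were called up-regulated without and 14 with the block (median 1.81). The smallest change there was 0.20 for CEBPB, which was not called. Of 13 spliced XBP1 targets, 5 were called without and all 13 with the block (median 0.95), from DERL1 (0.23) to DNAJB9 (3.15), an HSPA5 co-chaperone. Over all tested genes, 0.738% were called up-regulated without and 19.1% with the block. Every tested gene of these 3 lists had a log2 fold change above 0 in edgeR, so none was called lower with or without the block.

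The partners of MANF, SDF2 and SDF2L1 were mostly higher. HSPA5, to which MANF binds, was at 751 and 747 CPM in EV cells and 7314 and 6371 CPM in FCN3 cells, a log2 fold change of 3.19. DNAJB11, the partner of both SDF2 proteins, went from 60.9 and 53.8 to 256 and 230 CPM (log2 fold change 2.08, adjusted p = 0.00206 in edgeR). The co-chaperones DNAJC3 (2.56) and DNAJC10 (1.25) were called too. ERN1, the gene of the sensor IRE1, had 1.32 (adjusted p = 0.0157 in edgeR) and SIL1, a nucleotide exchange factor of HSPA5, 0.96 (adjusted p = 0.0120), neither called without the block and both called with it. NPTN, the gene of neuroplastin, a receptor proposed for secreted MANF, was at 131 and 150 CPM in EV cells and 116 and 126 CPM in FCN3 cells. Its log2 fold change was -0.22 (adjusted p = 0.272, and 0.00101 with the block, in edgeR).

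KDEL receptors return proteins with a KDEL-like tail to the ER. KDELR3 was at 13.3 and 15.1 CPM in EV cells and 25.5 and 25.1 CPM in FCN3 cells, with a log2 fold change of 0.85 (adjusted p = 0.0233 in edgeR). KDELR2 had 0.31 and KDELR1 -0.03, so none of the 3 was called by edgeR without the block. At an unadjusted p below 0.05 there were 2 of them, DESeq2 called 1, and edgeR with the block called 2, KDELR3 and KDELR2. A further 27 genes were listed as soluble ER proteins with such a tail. The tails were not checked against protein sequences, and some of these proteins may lack one. Of the 27, 12 were called up-regulated without and 20 with the block (median 0.96). Over all tested genes these shares were 0.738% and 19.1%. The extremes were HSPA5 (3.19) and KDELC1 (-0.35), a protein glucosyltransferase. None was called lower by edgeR with or without the block or by DESeq2. None was lower at an unadjusted p below 0.05 in edgeR either. MANF, CRELD2 and SDF2L1 each changed more than all 3 receptors.

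The MIR domain was shared by genes whose values differed little between the groups. Of 9 tested genes with MIR domains, SDF2L1 was the 1 called without the block, and the median log2 fold change was 0.07. The mannosyltransferases POMT1 and POMT2 had -0.04 and 0.07, and the calcium channels ITPR1, ITPR2 and ITPR3 had -0.17, 0.25 and 0.37. With the block, SDF2L1 and ITPR3 were called higher and SDF2 (-0.27) lower. Over all tested genes, 0.738% were called up-regulated without the block, and 19.1% higher and 17.1% lower with it.

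The tested genes most like each member were found by Euclidean distance over the 4 libraries, in log2 CPM centred on each gene's own mean. Closest to MANF were HSP90B1 (distance 0.0482), the ER HSP90, then ULBP1, MXD1, NUCB2 and FICD. HSP90B1 had a log2 fold change of 2.44, as did MANF. Closest to CRELD2 were HERPUD1 (0.159), a protein of ER-associated degradation, then CHAC1, SLFN5, SLC22A31 and HSPA5. Closest to SDF2L1 were TRIB3 (0.13), PDIA4, WIPI1, DNAJC3 and HYOU1. CRELD1 was closest to PRSS16 (0.0857), IFIT2, MSC, SYVN1 and HID1, and CDNF to MDM2 (0.0743), FMN1, TMED7, ZNFX1-AS1 and RASA4B. SDF2, whose change was small, had many close genes, led by TOE1 (0.00695). With 4 libraries that differ mainly by group, such likeness says little beyond a similar size of change.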

How the data were processed

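RNA-seq of 4 A549 libraries was analysed, 2 EV and 2 FCN3, grouped and numbered by the sample labels. Reads were trimmed and placed on hg19 by STAR (version 2.6.1d), and RSEM gave the abundances, per the study's methods and labels. The authors deposited RSEM's expected counts, not normalized, and its TPM, scaled for length and depth. The authors also deposited FPKM, which was not used, and the length and effective length of each gene in bases (other columns). The annotation and strand setting of the counting are not given in the sources used here. Its transcript identifiers are from RefSeq.

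Expected counts were rounded and tested in R 4.3.3 with edgeR 4.0.16 (filterByExpr with a minimum count of 10, TMM, quasi-likelihood F test, Benjamini-Hochberg adjustment over 14099 of 25192 genes, FDR 0.01). Each standard error is the size of the log2 fold change over the root of its F statistic. Alternatives used DESeq2 1.42.0 and limma 3.58.1 (closing section), and the fit was tested on simulated data. Libraries held 16353554 to 35733735 counts, so 3 counts, taken as the floor, correspond to 0.084 to 0.183 CPM. The 6 genes and the lists were chosen with earlier results of these data known. Named genes are the 6, their neighbours in GENCODE whose symbols are in the tables, the extremes of each list, partners, KDEL receptors, and the 5 closest patterns. Further genes of the lists, and those holding promoter elements, were named after their values were seen. The result of 1 further list is not reported here.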

Additional observations from a re-analysis of the deposited data

How the results depend on the processing

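MANF, CRELD2 and SDF2L1 were called higher under all 15 alternative settings, with log2 fold changes from 2.33 to 2.47, 3.54 to 3.73 and 2.55 to 2.82, and all 6 genes kept their direction in every setting that gave a value. With the replicate block in edgeR, CDNF (1.28), CRELD1 (1.64) and SDF2 (-0.27) were called too, but DESeq2 with the replicate block called neither CDNF (1.37, adjusted p = 0.303) nor SDF2 (-0.29, adjusted p = 0.0814). CRELD1 was also called by DESeq2 (1.61), by DESeq2 with the replicate block (1.62, a setting chosen after seeing the data), at an FDR of 0.05 (1.64) and without EV replicate 2, with 1.37 to 1.89 over the libraries left out in turn. CDNF gave no value under the minimum of 10 counts in every library and otherwise lay between 0.62, on log2(TPM + 1), and 1.79, without EV replicate 1.

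The count of called genes was 136 (104 higher, 32 lower), against 1046 with DESeq2 (588 and 458), 5103 with the replicate block (2690 and 2413), 2209 with DESeq2 and the replicate block (1106 and 1103), 1014 at an FDR of 0.05 (624 and 390), and 92 to 267 with each library left out in turn, most without EV replicate 2 (181 and 86) and fewest without FCN3 replicate 1 (78 and 14). Without EV replicate 1, 53 were lower. Of 78 tested genes of the lists, 32 were called, against 61 with the replicate block, 56 with DESeq2 and the replicate block, and 31 to 36 with a library left out. In leaving out a library, the lone sample of its group is assumed to vary like the others. The causes were not tested.

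The labels do not say what a replicate number stands for. As a check of pairing, replicate 2 minus replicate 1 in EV cells was set against the same difference in FCN3 cells over 8310 genes of average log2 CPM over 4, giving r = 0.806 (Pearson, over genes, which are not replicates). Replicate 1 was also the deeper library in both groups, so pairing and depth cannot be told apart here. The numbers pair only 2 libraries a group. CDNF rests on 5 to 37 counts a library.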

Other observations

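CRELD1 and SDF2L1 also differed between replicate numbers, which cannot be told apart from depth, replicate 1 being the deeper in both groups. In edgeR's quasi-likelihood fit with the condition in the model, replicate 2 minus replicate 1 was 0.33 on the log2 scale for CRELD1 (adjusted p = 0.00553) and -0.23 for SDF2L1 (adjusted p = 0.00568), each in the same direction in both groups. For MANF, CRELD2, SDF2 and CDNF it was 0.02, -0.06, 0.02 and -0.33, with adjusted p from 0.437 to 0.839 in the same fit.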
